A study of Gallus gallus with 100 samples.

Results

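The enzymes of melatonin synthesis, TPH1, DDC, AANAT and ASMT, were followed by RNA-seq in chicken pituitary glands. They are 4 of the 18685 genes listed in at least 1 of the 6 tables of expression values, and all 4 were listed in every table. They were taken by gene symbol and were selected on their own FPKM values, because single libraries stood far above the others. Their levels are given as a description and were not tested.

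The birds were male Ross 708 broilers, a fast-growing meat line, and each library came from the whole pituitary of 1 bird. Heat-stressed birds lived in a house raised from 25 °C to 35 to 37 °C during 8 h of each day from day 21, and control birds in a house kept at 25 °C. Both houses had 23 h of light and 1 h of dark. Control birds alone were taken at day 21 (15 libraries), before any heat. Heat-stressed and control birds were then taken at day 22 (after 8 h of heat, 13 and 10 libraries), day 26 (labelled 2 h, 5 and 6), day 32 (labelled 4 h, 6 and 6), day 40 (labelled as a week, 5 and 5) and day 42 (17 and 10). There was 1 house per treatment, so house and heat cannot be told apart.

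Melatonin is made from tryptophan in 4 steps. Tryptophan hydroxylase (TPH1) and aromatic amino acid decarboxylase (DDC) make serotonin, arylalkylamine N-acetyltransferase (AANAT) acetylates it, and acetylserotonin O-methyltransferase (ASMT) adds the last methyl group. The pineal gland, which lies on top of the brain, and the retina carry the whole chain. TPH1 uses tetrahydrobiopterin as cofactor, and DDC also serves dopamine neurons and is abundant in the proximal tubule of the kidney.

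The files place TPH1 (Entrez 395799) on chromosome 5 of galGal4 at chr5:11839351-11849927 in the day 22 table, with other bounds in the tables of days 21, 40 and 42. DDC (Entrez 420947) lies at chr2:80708805-80780541, AANAT (Entrez 396066) at chr18:4348386-4352215 and ASMT (Entrez 396286) at chr1:128381548-128389045. DDC overlaps LOC769743 in each table, and the counting of reads shared by the pair is not given in the sources used here. Values are FPKM, fragments scaled to transcript length and to sequencing depth, so levels can be set side by side between genes. The smallest AANAT value above 0 was 0.0306 FPKM and the smallest ASMT value above 0 was 0.0361 FPKM, which marks the region where a value rests on very few fragments.

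The labelled tissue was checked against its defining markers. In the 71 libraries of days 21 to 40, POU1F1, the transcription factor of growth hormone, prolactin and thyrotropin cells, was at most 0.431 FPKM. PRL was listed at 0 in 39 of them and reached 24.1 FPKM, GH lay between 0 and 92.5 FPKM, and the myelin gene MBP lay between 20018 and 57909 FPKM in the 23 libraries of days 26 and 32, whose tables list it. At day 42 POU1F1 was 40.1 to 349 FPKM, GH 17869 to 157459 FPKM and MBP 9.89 to 75.7 FPKM. POMC reached 203 FPKM in days 21 to 40, against 3392 FPKM or more at day 42, and the anterior pituitary list as a whole summed to at most 3214 FPKM (a day 32 control) and to 92895 FPKM or more at day 42. Before day 42 POU1F1 was thus at or near 0, and PRL, GH and POMC were low beside day 42. These 4 genes were abundant at day 42, so that day cannot be told apart from this difference in content. Between 10448 and 14505 genes were above 0 in each library except 984, a heat-stressed bird of day 42 with 7005, and EEF1A1, a gene every cell uses, had a value of 0 in 16 of the 27 day 42 libraries. A gene at 0 is therefore only called listed at 0.

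TPH1 stood high in few libraries before day 42. It reached 82.5 FPKM in control library 1579 of day 40, 39.4, 10.7 and 4.35 FPKM in libraries 1571, 1281 and 1573 of day 21, and 2.81 FPKM in control library 1514 of day 26. Just below these came library 1280 of day 21, at 1.89 FPKM. In the remaining libraries the range was 0.0360 to 0.837 FPKM at day 21, 0.0680 to 0.548 FPKM at day 26 and 0.0344 to 0.767 FPKM at day 40. At days 22 and 32 no library reached 1 FPKM, and the highest TPH1 values were 0.662 and 0.477 FPKM. All 6 high libraries came from control birds, 4 of them from day 21, when no heat had been given. At day 21 the 2 libraries numbered 1200 to 1400, 1280 and 1281, had a TPH1 median of 6.30 FPKM. The 13 numbered 1500 and above, among them 1571 and 1573, had a median of 0.339 FPKM. The part of the number range was not tested.

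**Figure D1:**
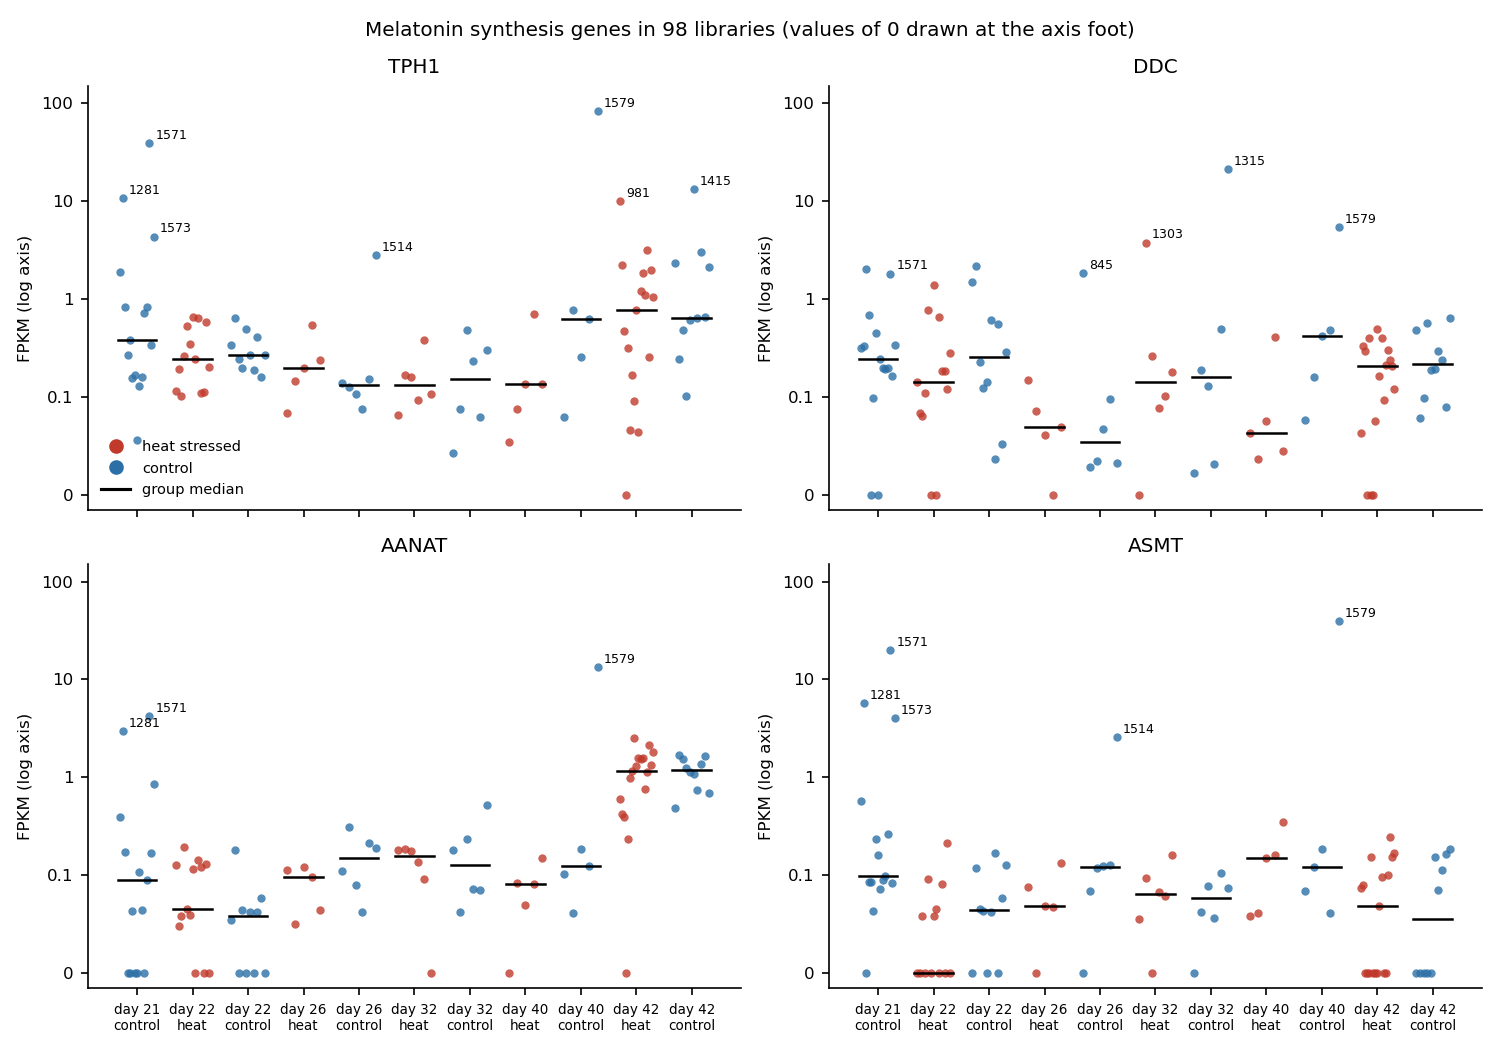
FPKM of TPH1, DDC, AANAT and ASMT on a log axis in 98 libraries, by day and by treatment (heat stressed left of control), with 1 point per library, the group median as a line and values of 0 at the foot. Library 1579 of day 40 was highest for TPH1 (82.5), AANAT (13.2) and ASMT (39.1), library 1315 of day 32 for DDC (21.1), and AANAT lay above its day 22 range in 26 of the 27 libraries of day 42.

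ASMT stood high in the same libraries as TPH1. It was 39.1 FPKM in library 1579, 20.03 in 1571, 5.74 in 1281, 4.00 in 1573, 2.55 in 1514 and 0.567 in 1280. Elsewhere it stayed at or below 0.348 FPKM, and 28 of the 98 libraries were at 0. ASMT was thus at 1 FPKM or more in 5 libraries and below that in the remaining 93. For DDC, TPH1 and AANAT, 9, 18 and 20 libraries were at 1 FPKM or more. The genes were chosen for their high libraries, so these counts are a description only.

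AANAT, the enzyme whose activity sets the nightly rhythm of melatonin in the bird pineal, was 13.2 FPKM in library 1579. At day 21 it was 4.26 FPKM in 1571, 2.96 in 1281, 0.862 in 1573 and 0.391 in 1280, against 0 to 0.174 FPKM in the other 11 libraries of that day. In library 1514 of day 26 AANAT was 0.191 FPKM, inside the range of 0.0320 to 0.314 FPKM of the other 10 libraries of day 26. Library 1514 thus carried TPH1 and ASMT without a raised AANAT.

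The proportions of the enzymes differed between these libraries. The ratio of ASMT to TPH1 was 0.474 in 1579, 0.509 in 1571, 0.535 in 1281, 0.920 in 1573, 0.301 in 1280 and 0.909 in 1514. The ratio of AANAT to TPH1 was 0.161, 0.108, 0.276, 0.198, 0.207 and 0.0680 in the same order. DDC, the enzyme between TPH1 and AANAT, was 5.47 FPKM in 1579 and 1.82 FPKM in 1571. In 1281, 1573 and 1280 it was 0.332, 0.336 and 0.317 FPKM, inside the range of 0 to 2.03 FPKM of the other libraries of day 21. In 1514 DDC was 0.0214 FPKM, close to the lowest value of its group. TPH1 exceeded DDC in each of the 6 libraries, but they were named for their high TPH1, so this order is no result. The ratio of DDC to TPH1 ran from 0.00762 in 1514 to 0.168 in 1280. In control library 1315 of day 32 the order was the reverse, with TPH1 at 0.298 and DDC at 21.1 FPKM.

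Several markers of the pineal gland and of photoreceptors moved with these values. The sum of their list was the highest of its day in 1579 and 1571 and not in the others. OPNP, which encodes pinopsin, the opsin of the chicken pineal, was 21.2 FPKM in 1579, 12.1 in 1571, 4.46 in 1281, 2.82 in 1573, 0.435 in 1514 and 0.337 in 1280. In the other libraries it was at most 0.0423 FPKM at day 21, 0.0691 FPKM at day 26 and 0.0946 FPKM at day 40. Before day 42 it had a value of 0 in 40 of the 59 libraries whose tables list it, and the day 32 table was without an entry for it. OPNP followed ASMT closely, at 0.543, 0.603, 0.777, 0.705 and 0.594 of ASMT in 1579, 1571, 1281, 1573 and 1280, and at 0.170 of it in 1514.

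Over the whole pineal and photoreceptor list, 12 of the 22 listed genes were at their highest of day 40 in 1579, and 16 of 31 at their highest of day 21 in 1571. The share of all genes at their highest in a given library was not computed, here or for the lists below. The summed level was 68.7 FPKM in 1579, against 5.79 to 18.6 FPKM in the other day 40 libraries, and 53.5 FPKM in 1571, against 17.8 to 42.9 FPKM in the other day 21 libraries. In 1281 and 1573, 1 and 2 of 31 were highest, and the sums of 27.4 and 30.8 FPKM lay inside the range of day 21. In 1514 of day 26, 6 of 22 were highest, and the sum of 12.5 FPKM lay inside the range of 10.2 to 16.6 FPKM. ARR3 (cone arrestin) was 10.2 FPKM in 1579 and 4.198 FPKM in 1571, and PDC (phosducin) 3.72 FPKM in 1579 and 2.26 FPKM in 1571. OTX2, a transcription factor of pineal and photoreceptor cells, was 4.77 FPKM in 1579, 2.15 FPKM in 1571 and 0.984 FPKM in 1281. In 1573 and 1280 it was 0.339 and 0.279 FPKM, below the highest remaining library of day 21 (0.502 FPKM). In 1514 it was 0.0857 FPKM, where another day 26 library reached 0.187 FPKM. OTX2 was also 1.68 FPKM in 1315, the highest of day 32, where ASMT was 0.0736 FPKM. CRX, GNB3, GNGT1 and RCVRN, also of pineal and photoreceptor cells, are listed in 0 of the 6 tables. SAG was 0.904 FPKM in 1579, below the day's highest of 1.28 FPKM, and 1.42 FPKM in 1571, the highest of its day. Other lists also stood apart. The retinal list without photoreceptors summed to 30.9 FPKM in 1579, against 14.6 to 22.7 FPKM in the other day 40 libraries. In 1571 it summed to 28.8 FPKM, against 14.8 to 22.1 FPKM in the other day 21 libraries. Of its 10 listed genes, 2 were at their highest of the day in 1579 and 4 in 1571. RGR, a gene of this list, was 7.13 FPKM in 1579 and 3.38 FPKM in 1571. The posterior lobe and brain list summed to 34232 FPKM in 1579, against 12686 to 26640 FPKM, with 12 of 18 genes at their highest. In 1571 that list summed to 1260 FPKM, inside the range of 517 to 2149 FPKM. The part of these cells in the enzyme levels was not tested.

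**Figure D2:**
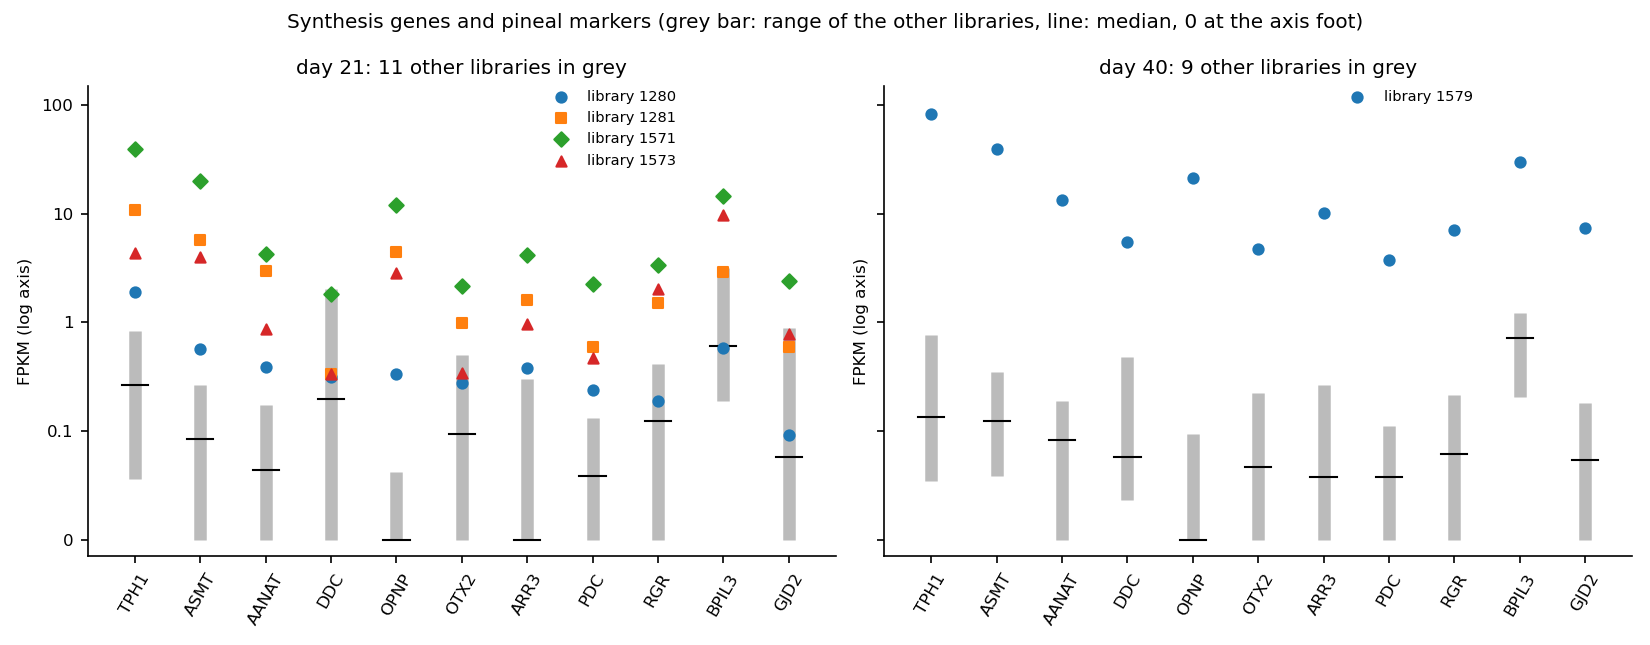
FPKM on a log axis of the synthesis genes and of pineal or photoreceptor markers at day 21 (left) and day 40 (right), where symbols are the named high libraries, grey bars the range of the other libraries of that day, lines their median, and 0 lies at the axis foot. In 1579 each plotted gene lay above its grey bar, and in 1571 each except DDC (1.82 FPKM, against up to 2.03). The plotted genes are a selection, so this is no result about the pineal and photoreceptor list. RGR, BPIL3 and GJD2 are not of that list and were among the genes most like the enzymes. SAG and CNGB1 of the list are not plotted, and in 1579 (0.904 and 5.20 FPKM) they lay below the day's highest (1.28 and 5.92 FPKM).

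Among the genes with the largest ratio to the other libraries of the same day and group, ranked with 1 FPKM added, library 1579 held TPH1, ASMT, OPNP and BPIL3 (29.9 FPKM, against a median of 0.505 FPKM), beside NARFL, MIR22, SEC22B and NBR1. Library 1571 held TPH1 and CELF3 (164 FPKM, against 3.25 FPKM), beside 6 genes with a median of 0 in the other libraries. In 1281 and 1573 the leading genes other than LAMTOR1 and SFTPA1 had a median of 0 in the other libraries, among them POP5 (36.4 and 17.0 FPKM). GH was 15.3 and 14.5 FPKM in 1579 and 1571, against day medians of 15.3 and 15.5 FPKM. Other anterior pituitary genes were higher there, with 4 of 13 listed at their highest of day 40 in 1579 and 4 of 15 at their highest of day 21 in 1571. The sum of that list was 35.6 FPKM in 1579, against 14.2 to 39.2 FPKM in the other day 40 libraries. In 1571 it was 227 FPKM, against 35.5 to 303 FPKM in the other day 21 libraries.

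Likeness was measured as the Pearson correlation of log2(FPKM + 1), centred on the mean of each table, over 98 libraries and the 7358 genes listed in all 6 tables that reached 5 FPKM. The points share their libraries, so these values are a description. The genes most like ASMT were AANAT (r = 0.86), TPH1 (0.84), BPIL3 (0.63), RGR (0.63) and GJD2 (0.61). For TPH1 they were ASMT (0.84), RGR (0.74), AANAT (0.70), GJD2 (0.60) and LOC101747847 (0.58), and for AANAT they were ASMT (0.86), TPH1 (0.70), BPIL3 (0.66), GJD2 (0.66) and LOC100858835 (0.62). RGR encodes an opsin of the retinal pigment epithelium, and GJD2 the gap junction protein connexin 36. Over the 86 libraries of the 5 tables that list it, OPNP correlated with ASMT at 0.96, with AANAT at 0.89 and with TPH1 at 0.79.

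These correlations rested on the few high libraries in part. Without 1579, r was 0.76 between TPH1 and ASMT, 0.75 between AANAT and ASMT and 0.53 between TPH1 and AANAT, and Spearman's rho over the 98 libraries was 0.63, 0.54 and 0.38. Within a day, r between TPH1 and ASMT was 0.98 at day 21, 0.95 at day 26 and 0.99 at day 40. At day 21 several libraries were high for both genes, but at day 26 only library 1514 was, and at day 40 only 1579. Spearman's rho between TPH1 and ASMT was 0.61 at day 21, 0.18 at day 26 and 0.54 at day 40. Their r was 0.19 at day 22, 0.12 at day 32 and 0.32 at day 42, where no library had both at 1 FPKM or more.

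**Figure D3:**
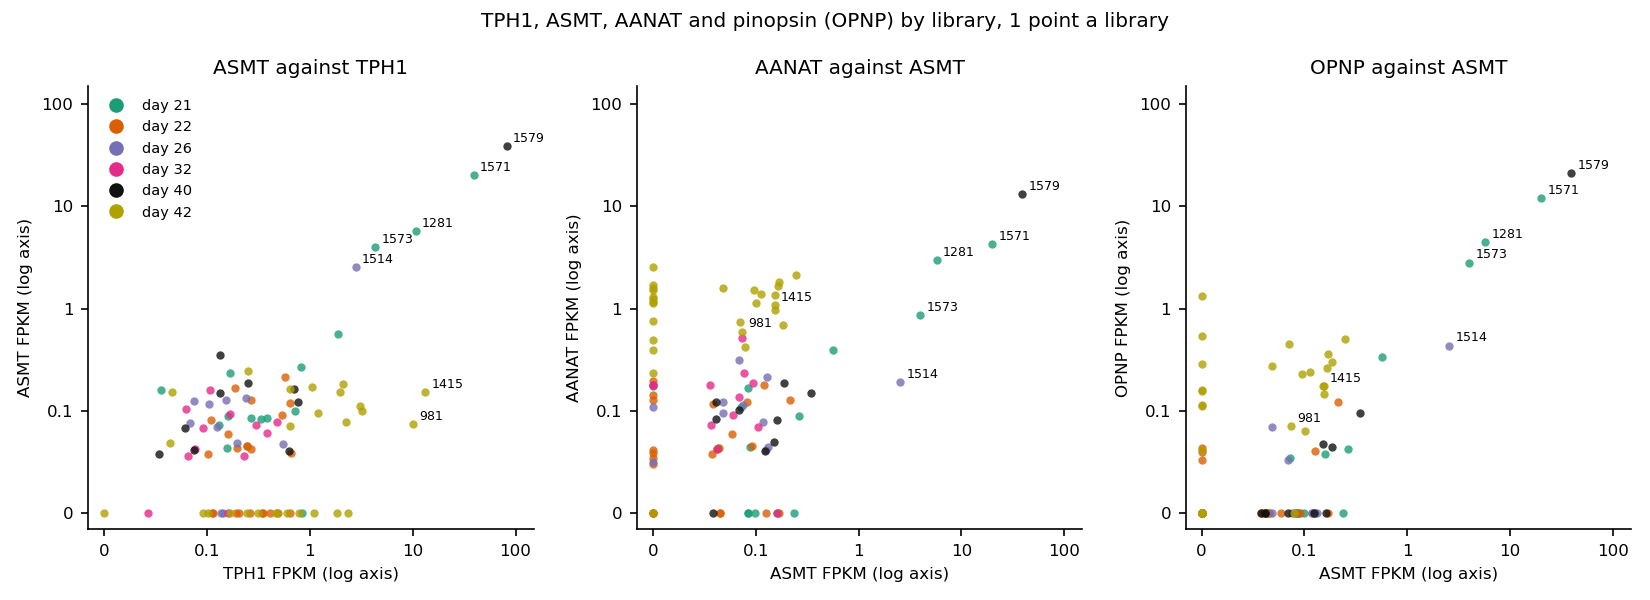
ASMT against TPH1 (left), AANAT against ASMT (middle) and OPNP against ASMT (right), in FPKM on log axes with values of 0 at the foot, 1 point per library and coloured by day. Libraries 1573, 1281, 1571 and 1579 lie high in all panels (ASMT 4.00 to 39.1 FPKM), library 1514 (ASMT 2.55) has less AANAT and OPNP beside its ASMT, and libraries 1415 and 981 of day 42 have high TPH1 (13.2 and 10.1) beside ASMT of 0.154 and 0.0745.

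DDC took a course of its own. Its highest values were 21.1 FPKM in control library 1315 of day 32, 5.47 FPKM in 1579, 3.77 FPKM in heat-stressed library 1303 of day 32, 2.19 FPKM in control library 1437 of day 22 and 2.03 FPKM in library 1560 of day 21. In 1315 TPH1 was 0.298 FPKM, ASMT 0.0736 FPKM and AANAT 0.516 FPKM, the highest AANAT value of that day. Apart from 1579 and 1571, the libraries with DDC at 1 FPKM or more had TPH1 and ASMT below 1 FPKM. Some of them were still among the highest of their day for TPH1, with 0.648 FPKM in 1437, 0.662 FPKM in 1522 and 0.837 FPKM in 1560. Within a day, r between TPH1 and DDC was highest at day 40 (0.98), which holds 1579, followed by days 22 (0.64) and 21 (0.53), and was lower at days 32 (0.24), 42 (0.14) and 26 (-0.17).

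The genes most like DDC were GLRA2 (a glycine receptor subunit, r = 0.81), VSTM2A (0.80), ADCYAP1 (the neuropeptide PACAP, 0.78), GAD1 (the enzyme that makes GABA, 0.78) and PTPRN2 (a protein of secretory vesicles, 0.78). Without 1315, r was between 0.67 for ADCYAP1 and 0.75 for GLRA2 and VSTM2A. DDC correlated with TPH1 at 0.36, with AANAT at 0.40 and with ASMT at 0.35. The synapse gene SNAP25 reached 0.75 with DDC, against 0.24 with TPH1.

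Neuronal and hypothalamic genes stood high in several, but not all, of the DDC libraries. In 1315, 10 of 12 genes of a list of hypothalamic and other neurons were at their highest of day 32. This list was put together after values had been seen. Its sum in 1315 was 4640 FPKM, of which AVP alone was 3353 FPKM, against 6.85 to 2628 FPKM in the other day 32 libraries. The 8 leading genes of 1315 included 4 neuropeptide genes of the hypothalamus, NPVF (129 FPKM), HCRT (54.2 FPKM), ADCYAP1 (96.8 FPKM) and AVP (3353 FPKM). The others were NDUFA1, TRNAL-CAG, TRAPPC4 and ENOPH1. GAD1 was 23.5 FPKM, SLC18A2, the vesicular monoamine transporter, 4.76 FPKM, and TH, the first enzyme of dopamine synthesis, 0.760 FPKM. In 1303 the 8 held the peptide and hormone genes GHRH (66.9 FPKM), CGA (236 FPKM), POMC (203 FPKM) and PNOC (42.5 FPKM), beside LOC101748764, ENOPH1, SEC22B and UNC50. In 1437 they held TAC1 (44.8 FPKM), POMC (45.4 FPKM) and CGA (32.9 FPKM), beside MIR1680, LOC101751323, SEC22B, MIR1458 and LOC101749469. In 1303 the sum of the neuronal list, 516 FPKM, lay inside the range of day 32, with 1 of 12 genes at its highest. In 1437, 4 of 10 were at their highest of day 22, and in 1579, 9 of 11 were at their highest of day 40. Of the catecholamine and serotonin neuron list, 7 of 11 genes were highest in 1315, 0 of 11 in 1303 and 1 of 10 in 1579. Other lists also led in 1315, with 13 of 21 posterior lobe and brain genes, AVP among them, and 9 of 24 genes of serotonin and melatonin metabolism highest. The brain list summed to 34240 FPKM there, below the 36387 to 62985 FPKM of the other day 32 libraries. The part of neurons in the DDC level was not tested.

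Control library 845 of day 26 was set apart in another way. DDC was 1.84 FPKM there, against 0 to 0.148 FPKM in the other 10 libraries of day 26, and TPH1 was 0.138 FPKM. All 7 genes of a list of kidney proximal tubule, also put together after values had been seen, were at their highest of day 26 in 845, with a sum of 1300 FPKM, against 1.19 to 146 FPKM. Among the leading genes were SLC34A1 (the phosphate transporter of the tubule, 212 FPKM) and PCK1 (126 FPKM). In 845, 9 of 12 neuronal genes were likewise at their highest of the day. So were 9 of 20 posterior lobe and brain genes, 11 of 22 genes of serotonin and melatonin metabolism and 7 of 15 melatonin and serotonin receptors. The neuronal sum in 845 was 2809 FPKM, against 18.2 to 2609 FPKM in the other libraries. AVP, which the brain list also holds, alone was 2645 FPKM in 845. Heat-stressed library 1511, with the sum of 2609 FPKM, had AVP at 2521 FPKM and DDC at 0.0498 FPKM. GAD1 was 0.396 FPKM in 845, the highest of day 26, where the other libraries reached 0.199 FPKM. In control library 1415 of day 42 all 7 kidney genes were also at their highest of the day. DDC was 0.191 FPKM in 1415, below the day 42 median of 0.205 FPKM. The part of either tissue in the DDC level of 845 was not tested.

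**Figure D4:**
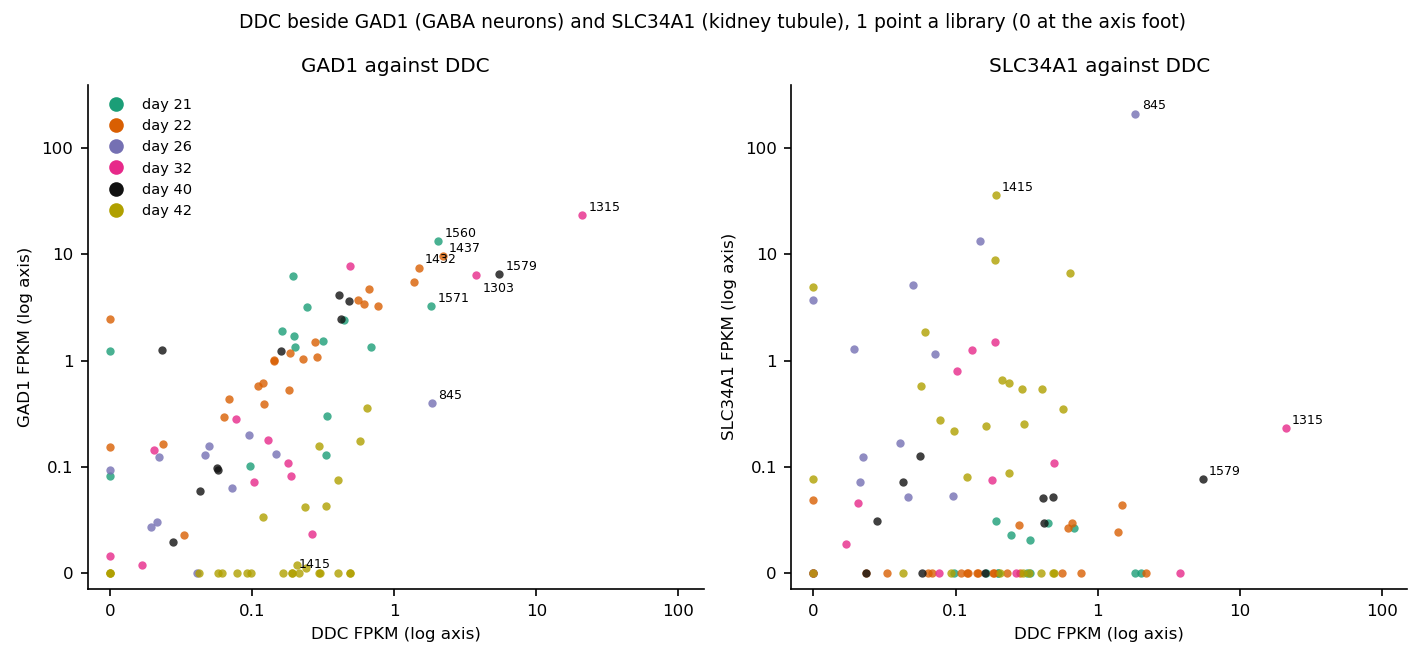
GAD1 against DDC (left) and SLC34A1 against DDC (right), in FPKM on log axes with values of 0 at the foot, 1 point per library and coloured by day. GAD1 climbs with DDC up to 1315 (21.1 and 23.5 FPKM), while 845 lies apart with SLC34A1 at 212 FPKM beside DDC at 1.84 FPKM.

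At day 42 the enzymes were described over all libraries. The earlier high libraries were named for their high TPH1, so the order of the enzymes in them is not set against that of day 42. AANAT was 0 to 2.54 FPKM with a median of 1.17 FPKM in 17 heat-stressed libraries, and 0.491 to 1.71 FPKM with a median of 1.19 FPKM in 10 control libraries. Of the 27 libraries, 26 exceeded the highest value of day 22, 0.196 FPKM, and the exception was 984, where all 4 genes were listed at 0. AANAT was thus higher in nearly every library of day 42 than in any library of day 22, where 7 of 23 were at 0. By another measure, limma between the controls of these days, 33% of all genes tested were called, 12.8% higher and 20.2% lower. AANAT, at a mean of 0.603 FPKM over these controls, did not pass the filter of that test. The share of all genes with so many day 42 libraries above day 22 was not computed. Against day 22 controls the AANAT mean of day 42 controls was 29.1 times as high, and it was 16.7 times as high in TPM. The day 22 control mean was only 0.0401 FPKM, with 4 of 10 libraries at 0, so these multiples rest on very few fragments. Before day 42, 3 of 71 libraries exceeded the day 42 median.

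ASMT did not accompany AANAT at day 42. It was 0 to 0.246 FPKM with a median of 0.0482 FPKM in heat-stressed libraries and 0 to 0.184 FPKM with a median of 0.0355 FPKM in control libraries, and 13 of the 27 libraries were at 0. OPNP was 0 to 0.500 FPKM in heat-stressed and 0 to 1.31 FPKM in control libraries. DDC stayed below 1 FPKM in all day 42 libraries, at 0 to 0.490 FPKM in heat-stressed and 0.0613 to 0.641 FPKM in control libraries.

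TPH1 varied widely at day 42, at 0 to 10.1 FPKM with a median of 0.782 FPKM in heat-stressed libraries and 0.102 to 13.2 FPKM with a median of 0.643 FPKM in control libraries. The highest values, 13.2 FPKM in control library 1415 and 10.1 FPKM in heat-stressed library 981, were followed by 3.20 FPKM. In 1415 ASMT was 0.154 FPKM and AANAT 1.08 FPKM, while RGR was 5.70 FPKM and SLC34A1 36.2 FPKM. DDC was 0.191 FPKM in 1415, below the day median of 0.205 FPKM. All 7 kidney genes were at their highest of day 42 in 1415, with a sum of 140 FPKM, against 0.821 to 27.5 FPKM in the other libraries. In 981 their sum was 2.45 FPKM and RGR was 2.03 FPKM. Of the pineal and photoreceptor list, 0 of 27 genes were at their highest of day 42 in either library, and the sums of 33.5 FPKM in 1415 and 46.1 FPKM in 981 lay inside the range of the day. ARR3 was 0.828 FPKM in 1415 and 0.554 FPKM in 981, below the day's highest of 1.27 FPKM.

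Within the 27 libraries of day 42, r between TPH1 and AANAT was -0.13. The genes most like TPH1 there were GRIK1 (a kainate receptor subunit, 0.72), ITGB8 (0.71), LOC771069 (0.70), LOC101748985 (0.70) and CNR1 (the cannabinoid receptor, 0.69). For AANAT they were CYB561D2 (0.87), PIN4 (0.86), LOC429955 (0.86), SLC12A9 (0.85) and TNK2 (0.84). These orders rested in part on library 984, since without it the 5 genes ranked 3, 4, 6, 7 and 10 for TPH1 and 7, 23, 6, 34 and 3 for AANAT, and HAAO moved from r = 0.13 to 0.81 with TPH1. AANAT correlated with GH at 0.46, and at 0.65 without library 984, and TPH1 with GH at -0.45, and at -0.42 without it. At day 42 the libraries numbered below 1100 had an AANAT median of 0.788 FPKM in 10 heat-stressed and 1.39 FPKM in 4 control birds, and those numbered 1400 to 1500 had 1.35 FPKM in 5 heat-stressed and 1.11 FPKM in 6 control birds.

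The order of the group medians for AANAT began with day 42, followed by day 32 heat-stressed (0.157 FPKM), day 26 control (0.151 FPKM) and day 32 control (0.127 FPKM), and ended with day 22 control (0.0383 FPKM). For TPH1 it ran from day 42 heat-stressed (0.782 FPKM) and day 42 control (0.643 FPKM) through day 40 control (0.628 FPKM) and day 21 (0.383 FPKM) to day 26 control (0.132 FPKM). DDC was highest in day 40 control (0.420 FPKM) and lowest in day 26 control (0.0344 FPKM), and ASMT was highest in day 40 heat-stressed (0.150 FPKM) and at 0 in day 22 heat-stressed birds. The ranges of neighbours in these orders overlapped in every case. For AANAT, day 42 control birds did not overlap with day 32 heat-stressed birds, and without library 984, where the lowest value was 0.234 FPKM, day 42 heat-stressed birds did not either. The range of day 42 control birds, from 0.491 FPKM, did overlap with those of day 32 control (up to 0.516 FPKM), day 21 (4.26 FPKM) and day 40 control (13.2 FPKM). The share of all genes set apart between such groups was not computed.

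Heat-stressed and control birds were set side by side for each enzyme, with no test. At day 40 TPH1 was 0.0344, 0.0748, 0.135, 0.703 and 0.134 FPKM in heat-stressed birds, against 0.0619, 0.767, 0.253, 0.628 and 82.5 FPKM in control birds. The ratio of the means, heat-stressed over control, was 0.0128, and it was 0.506 without library 1579. ASMT was 0.0382, 0.0415, 0.150, 0.163 and 0.348 FPKM in heat-stressed birds, against 0.0687, 0.123, 0.187, 0.0410 and 39.1 FPKM in control birds, with a ratio of 0.0188 that became 1.41 without 1579. AANAT gave 0.0266 with and 0.641 without 1579, and DDC 0.0848 with and 0.399 without it. At day 40 the ratios of the means thus moved strongly with library 1579. The ratio of the medians was 0.102 for DDC, close to that of the means, 0.214 for TPH1, 0.662 for AANAT and 1.23 for ASMT, and the ranges of both groups overlapped for all 4 genes.

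The same held at days 26 and 32. At day 26 TPH1 was 0.0680, 0.144, 0.197, 0.548 and 0.240 FPKM in heat-stressed birds, against 0.0749 to 2.81 FPKM with a median of 0.132 FPKM in control birds, and the ratio of 0.421 became 2.00 without 1514. DDC gave 0.182 with and 1.51 without 845. ASMT gave 0.122 with and 0.693 without 1514. At day 32 DDC was 0 to 3.77 FPKM with a median of 0.141 FPKM in heat-stressed birds and 0.0169 to 21.1 FPKM with a median of 0.159 FPKM in control birds, and the ratio of 0.201 became 4.32 without 1315. The direction of each of these ratios except that of ASMT turned on a single library. AANAT gave 0.515 at day 26 and 0.694 at day 32, and its highest value at these days was 0.516 FPKM. TPH1 gave 0.834 and ASMT 1.25 at day 32. These 3 ratios of day 32 also turned on a single library, with AANAT at 1.08 without 1315, TPH1 at 1.17 without 1309 and ASMT at 0.927 without 1307.

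At day 22 the groups overlapped for each enzyme, with TPH1 at 0.103 to 0.662 FPKM and a median of 0.243 FPKM in heat-stressed birds, against 0.159 to 0.648 FPKM and a median of 0.267 FPKM in control birds. The ratio of the TPH1 means was 0.982, heat-stressed over control. For DDC it was 0.536, and 0.785 without 1437. AANAT gave 1.89 and ASMT 0.647 at levels of at most 0.214 FPKM. At day 42 the ratio was 0.986 for AANAT and 0.624 for TPH1, and the TPH1 ratio became 1.28 without 1415 and 0.394 without 981. DDC gave 0.691 and ASMT 0.959.

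The other genes of the pathway were tested with limma on log2(FPKM + 1), over all genes that averaged 1 FPKM or more in the compared libraries and with Benjamini-Hochberg adjustment over all of them. Of the 4 enzymes, 0 passed this filter at days 22 and 26, 1 at day 32, 3 at day 40 and 2 at day 42 in the heat comparisons, mostly through the libraries named above. Between days, 1 (TPH1) passed for day 42 against day 22 and 2 (TPH1 and ASMT) for day 22 against day 21. In heat-stressed against control birds, 0 of 61 tested list genes were called at an adjusted p under 0.05 by limma at day 22, 0 of 67 at day 26, 0 of 78 at day 32, 0 of 69 at day 40 and 0 of 77 at day 42. Without adjustment, 1, 9, 8, 6 and 5 list genes had a p under 0.05 by limma. Among all genes tested, these counts were 407 of 8256, 1245 of 9079, 609 of 10282, 416 of 8831 and 242 of 9223. Of all genes tested, 0.133% were called at day 22 (0.121% higher, 0.0121% lower), 0.584% at day 26 (0.507% higher, 0.0771% lower) and 0% at days 32, 40 and 42, so few calls were made anywhere. Among the genes of serotonin and melatonin metabolism alone, 13, 13, 15, 17 and 16 were tested at these days. Day 22 controls against day 21 gave calls for 0 of 58 list genes and for 0.0643% of all genes (0.0257% higher, 0.0386% lower). An unadjusted p under 0.05 by limma was reached by 3 of these 58 list genes and by 827 of all 7781 genes tested.

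Day 42 controls differed from day 22 controls in many genes, and the calls needed an adjusted p under 0.05 and a change of at least 2-fold. Of 72 tested list genes, 34 were higher and 14 were lower at day 42. Of all genes tested, 33% were called, 12.8% higher and 20.2% lower. Of the 34, 15 belonged to the anterior pituitary list, in which 15 of 15 tested genes were higher, with a median log2 change of 7.71. Of 9 tested genes of the posterior lobe and brain list 2 were higher and 3 were lower, of 3 of the catecholamine and serotonin neuron list 3 were higher, of 3 mast cell genes 1 was higher and 1 was lower, and of 2 retinal genes 2 were lower. The part of this difference in content in the pathway genes was not tested. The median log2 change of all genes was -0.15.

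Within the pathway list, the 5 tested genes that supply tetrahydrobiopterin were all higher at day 42, and 2 fell short of 2-fold in TPM. Across all genes 12.8% were higher, a share this count cannot be set against. The genes were grouped as suppliers of this cofactor only after their values were seen. GCH1, the first enzyme of its synthesis, was 25.3 ± 11.3 FPKM in day 42 controls and 0.669 ± 0.561 FPKM in day 22 controls (SD, n = 10 each). Its lowest library of day 42 (10.9 FPKM) lay above the highest of day 22. The share of all genes set apart in this way was not computed. The log2 change of GCH1 was 3.92 ± 0.25 (SE), with an adjusted p of 2.87e-12 by limma. PCBD1, which helps to recycle the cofactor, was 152 ± 29.4 FPKM in day 42 and 19.6 ± 10.03 FPKM in day 22 controls (log2 change 2.99, adjusted p 3.06e-11 by limma). QDPR, the recycling reductase, was 214 ± 92.1 FPKM in day 42 and 41.5 ± 7.17 FPKM in day 22 controls (2.19, adjusted p 1.53e-07 by limma). SPR (1.03) and PCBD2 (1.11), the last enzyme of the synthesis and a second dehydratase, changed less, and fell short of 2-fold in TPM (0.48 each), as PCBD2 did without libraries 1432 and 1437 (0.93).

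Around serotonin and melatonin breakdown, MAOA and MAOB, the monoamine oxidases, went in opposite directions. MAOA was 10.3 ± 3.32 FPKM in day 42 and 68.7 ± 7.48 FPKM in day 22 controls (log2 change -2.71, adjusted p 7.69e-11 by limma). MAOB was 6.71 ± 3.56 FPKM in day 42 and 2.06 ± 1.62 FPKM in day 22 controls (1.27, adjusted p 0.00227 by limma, and 0.0518 in TPM). AHCY, which clears the by-product of methylation, was higher (1.23, and 0.62 in TPM), while SLC7A5, a transporter of tryptophan and other large amino acids, was lower (-3.23), as was CYP1B1 (-2.17). In all, 7 of 13 tested genes of serotonin and melatonin metabolism were higher and 3 were lower, and 3 did not pass.

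**Figure D5:**
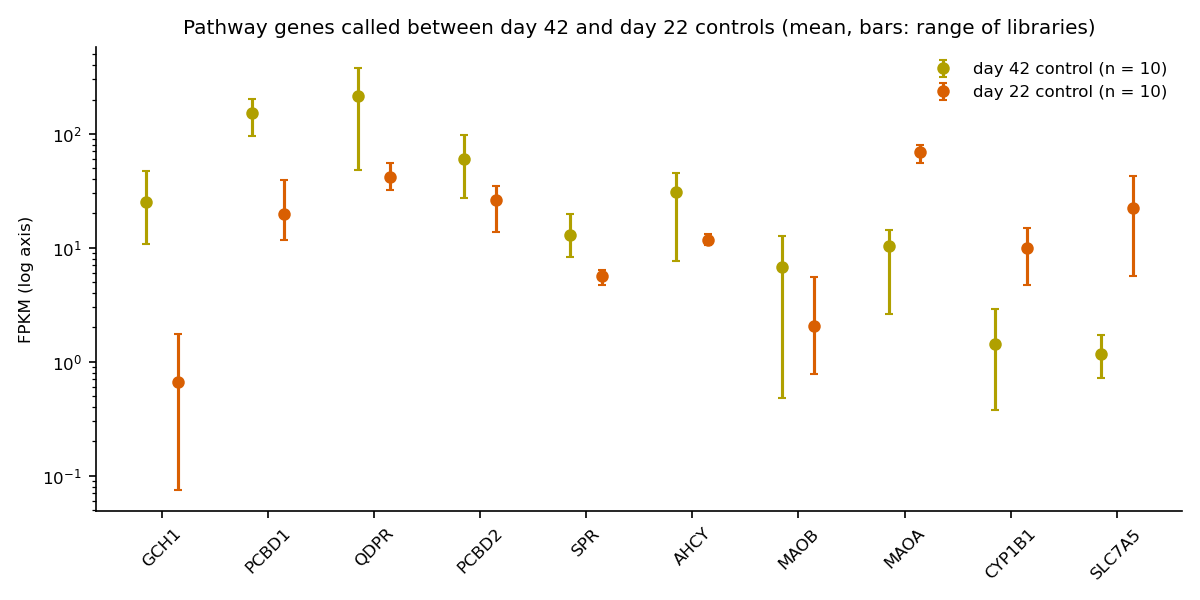
Mean FPKM on a log axis of the 10 called genes of serotonin and melatonin metabolism in controls of day 42 (left of each pair) and day 22 (right), with bars from the lowest to the highest of 10 libraries. GCH1 (25.3 at day 42 and 0.669 FPKM at day 22) and PCBD1 (152 at day 42 and 19.6 FPKM at day 22) lie higher at day 42, without overlap. MAOA (10.3 at day 42 and 68.7 FPKM at day 22) and SLC7A5 lie lower at day 42, also without overlap. The share of all genes without overlap between these groups was not computed.

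Of the receptors, HTR1B was 33.6 ± 12.2 FPKM in day 42 and 5.80 ± 6.04 FPKM in day 22 controls (log2 change 2.66, adjusted p 1.69e-06 by limma). HTR7 was 1.05 ± 0.547 FPKM in day 42 and 7.32 ± 4.70 FPKM in day 22 controls (-1.85, adjusted p 6.04e-06 by limma), and 2 of 4 tested receptors did not pass. The melatonin receptor MTNR1B stayed low in all groups, with medians of 0.272 FPKM in heat-stressed and 0.236 FPKM in control birds of day 42, against 0.279 FPKM in heat-stressed and 0.320 FPKM in control birds of day 22, and it was not tested for lack of level. MTNR1A, MTNR1C and GPR50 are listed in 0 of the 6 tables. TPH2, the neuronal tryptophan hydroxylase, was 0.215 to 2.23 FPKM in day 42 and 0.150 to 0.490 FPKM in day 22 controls, and TH was at most 0.0232 FPKM in day 42 and 0.263 FPKM in day 22 controls.

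Among regulators known to act on pineal enzyme genes, 3 of 19 tested were higher and 3 were lower at day 42, shares near those of all genes (12.8% higher and 20.2% lower). CREM, whose product ICER represses Aanat in rodents, was 32.4 ± 14.3 FPKM in day 42 and 4.48 ± 0.789 FPKM in day 22 controls (log2 change 2.44, adjusted p 4.45e-08 by limma). VIPR1 was higher (2.53) and VIPR2 lower (-2.26), both receptors of VIP, and ADCYAP1R1, the receptor of PACAP, was lower (-3.05). BHLHE40 was higher (1.27, and 0.75 in TPM) and TEF lower (-1.54), both transcription factors tied to the circadian clock. Of the pineal and photoreceptor list, CNGA3 (1.72) and OPN4-1 (1.19) were higher and PDE6B (-2.30) was lower, and 1 of the 4 tested did not pass. The list has 32 genes in any table.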

How the data were processed

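Whole pituitaries of individual broilers were sequenced from poly(A) RNA with an Illumina stranded kit. The authors aligned reads with Bowtie and TopHat to the Gallus gallus version 4 genome and deposited FPKM from Cufflinks, 1 table per day, and no scaling between libraries is given in the sources used here. Versions of these tools are not given in the sources used here. Of 100 samples, 98 had a column. A further 3 columns matched no sample and were left out. Replicates were separate birds. The tables list different genes, and the day 42 table has 16 missing values. The authors give a range of sequencing depth for their libraries, but FPKM give no read numbers. The depth of each single library is therefore unknown, and no counting interval was computed.

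FPKM were read as deposited. The 4 enzymes were described by library, group range and median, and ratios of group means. Other genes of 9 lists were tested with limma 3.58.1 (R 4.3.3) after log2(FPKM + 1), keeping genes that averaged 1 FPKM or more in the compared libraries. Calls needed an adjusted p under 0.05 and, between days, 2-fold. The fit was checked on simulated data. Python 3.11.15, pandas 2.3.3, numpy 2.4.6 and matplotlib 3.10.9 did the rest.

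The enzymes and lists were chosen with earlier results of these data known. Named genes were the enzymes, up to 3 called genes per list with the smallest adjusted p (any called gene beyond these was picked with its values in view), the 5 genes most like each enzyme, up to 8 leading genes of each high library, and fixed markers. A library was high where it led its day for at least 2 enzymes, or exceeded 10 times the day median at 1 FPKM or more. Library 1280 was named after its values were seen. Alternatives were a pseudocount of 0.1, no filter, rescaling to the median gene, TPM, library number range as covariate, no minimum change, ratios of medians, Spearman's rho, and left-out libraries. The likeness within day 42, the TPH1 ratio without library 981 and the fits without libraries 984, 1281, 1415, 1432, 1437, 1571 and 1573 were added after the data were seen.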

Additional observations from a re-analysis of the deposited data

Results flagged for a closer look

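In groups of 4 to 10 libraries, the gap of the highest or lowest library to its neighbour was set against the group's range. Of 32 combinations of gene and group, 14 stood apart. The cut-off is meant for about 1 in 20 by chance, a rate that cannot be applied here because the genes were chosen for such gaps. This number is a description only and no test. Library 1579 stood apart among day 40 controls for all 4 enzymes, at 82.5 FPKM for TPH1 (next value 0.767), 39.1 for ASMT (0.187), 13.2 for AANAT (0.188) and 5.47 for DDC (0.483). Library 1514 did so among day 26 controls for TPH1 (2.81, next 0.154) and ASMT (2.55, next 0.128), and library 845 for DDC (1.84, next 0.0956). Among day 32 birds DDC was 3.77 FPKM in heat-stressed library 1303 (next 0.265) and 21.1 FPKM in control library 1315 (next 0.491). At day 42 TPH1 was 13.2 FPKM in control library 1415 (next 3.05). At lower levels, TPH1 was 0.384 FPKM in 1306 (day 32 heat-stressed, next 0.168) and 0.703 FPKM in 1575 (day 40 heat-stressed, next 0.135), DDC was 0.409 FPKM in 1575 (next 0.0562), and AANAT was 0.179 FPKM in 1437 (day 22 control, next 0.0592).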

How the results depend on the processing

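Counts of called list genes stayed at 0 in each heat comparison and between days 22 and 21 under all alternatives run. With 1 library left out, the heat over control ratio at day 26 ranged over 0.285 to 2.00 for TPH1, 0.119 to 1.51 for DDC and 0.0862 to 0.693 for ASMT, at day 32 over 0.0341 to 4.32 for DDC, and at day 40 over 0.00563 to 0.506 for TPH1, 0.0284 to 0.399 for DDC, 0.0196 to 0.641 for AANAT and 0.0124 to 1.41 for ASMT. The upper ends are the values without the highest library. Ratios of medians were 1.49, 1.45 and 0.400 for TPH1, DDC and ASMT at day 26, 0.883 for DDC at day 32, and 0.214, 0.102, 0.662 and 1.23 for TPH1, DDC, AANAT and ASMT at day 40. Spearman's rho was 0.633 between TPH1 and ASMT, 0.544 between AANAT and ASMT and 0.379 between TPH1 and AANAT. Over all genes, day 42 against 22 gave 2742 calls, 38.8% of them higher, and 4600 (18.6%) in TPM, 4401 without a minimum change and 2725 (50.9%) rescaled to the median gene, where the median log2 change was -0.77 in TPM and 0.07 rescaled. Calls in all genes under heat, 11 at day 22 and 53 at day 26, ranged over 1 to 11 and 6 to 55, and the 5 calls between days 22 and 21 over 4 to 20. The cause of these shifts was not tested. No paired analysis was possible because library numbers are not shared between groups.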
